A study of Mus musculus with 16 samples.

Results

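Cytosolic ribosomal proteins are the protein part of the ribosome that translates messages in the cytoplasm. The genes were chosen by symbol: Rpl or Rps followed by a digit, Rplp0 to Rplp2, or Rpsa. The S6 kinases and symbols marked as pseudogenes (-ps) were left out. On an Affymetrix mouse array read through probe sets that carry 1 gene symbol, this gave 50 genes of 18193, and for each gene the probe set with the highest mean over the 16 arrays was taken. Of these, 23 are genes of the small (40S) subunit or their paralogues and 26 those of the large (60S) subunit. Among the 23 is Rps4l, which RefSeq lists as a transcribed pseudogene. The remaining member, Rps19bp1, matches the symbol rule but encodes a nucleolar protein that binds RPS19, and it is not a ribosomal protein.

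The measured cells were CD4+ T cells of AND mice, whose transgenic receptor recognises a moth cytochrome c peptide. Lymph node cells with the CD90.1 marker went into B10.BR recipients and CD4+CD90.1+ cells were sorted 60 h later. Animals were 6 to 8 weeks old. Recipients of the antigen groups carried Ii-rTA and TIM and made the peptide under doxycycline control, through transient or lasting doxycycline treatment. Recipients without antigen carried TIM but not Ii-rTA and had no doxycycline, so genotype, doxycycline and antigen cannot be told apart in comparisons with them. Each antigen regime was combined with the antibody FGK45.5, which stimulates CD40 on dendritic cells, or with PBS. No and transient antigen with anti-CD40 held 2 arrays each (replicates 1 and 2), and the other 4 of the 6 groups held 3 each, 16 arrays in all. RNA was amplified in 2 rounds before labelling. The labels do not tie replicates to separate animals or cultures, and p-values here cover only the spread among the 16 samples, which may be technical.

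Each small subunit decodes the message and each large subunit joins amino acids, and the proteins of both are needed in balanced amounts. Many mammalian ribosomal protein messages begin with a run of pyrimidines, through which the kinase mTOR raises or lowers their translation. Translation was not measured here. Resting T cells build few ribosomes, and activated T cells are known to raise ribosome production before they divide. Several free ribosomal proteins bind MDM2 and so stabilise the tumour suppressor p53 when ribosome assembly fails.

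All values are log2(intensity + 1) of the deposited intensities, and all differences are on that scale. Of 8 T cell marker genes 7 were measured, and all 7 lay above the median probe set (4.35) in all 6 groups. So did 5 or 6 of the 6 dendritic cell and macrophage genes. Summed intensities per array were 6660 to 10500 for the T cell genes and 141 to 274 for those 6. For persistent against no antigen with PBS, 2 of the 7 T cell genes were lower and 0 higher in the blocked fit described below. Between arrays of a group, correlations over all genes ran from 0.941 to 0.987. Deviations from the group means followed the replicate number in all 16 arrays, so a limma fit with the replicate number as a block is given beside the fit without it. For replicate 2, arrays with and without antigen belonged to separate runs of consecutive array numbers. The log2 gap between the 3′ and 5′ control probe sets of Gapdh was 1.29 to 1.54 in the replicate 2 arrays with antigen and 2.14 to 3.51 in all others. Of other cell types, the summed intensity of the 4 granulocyte genes was 54.9 to 65.1 under persistent antigen with PBS, against 66.6 to 67.5 in its no-antigen group. The 2 measured erythrocyte genes summed to 18.3 to 23 against 23.1 to 28.4 in these groups, with neither above the median probe set. The 3 measured B cell genes summed to 60.1 to 147 against 92.9 to 104. With anti-CD40 the B cell sums were 50 to 113 under transient and 68.7 to 146 under persistent antigen, against 121 to 238 without antigen, and 1 of the 3 genes was lower in the blocked fit in both comparisons. The 6 dendritic cell and macrophage genes summed there to 161 to 225 and 190 to 266, against 239 to 249. The granulocyte genes summed to 56.7 to 69.3 and 63 to 66.1, against 69.6 to 73.4. The part of these markers in the results was not tested.

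Of the 50 members, 46 lay above the median probe set on average. The 4 below it were Rpl39l, Rpl3l, Rps16 and Rps4l, with array values between 2.57 and 4.58. The brightest members on average were Rps3, Rpl13a and Rpl41, with array values between 11.99 and 12.90. Group means ranged most widely for Rps27l (1.58), Rpl14 (1.48), Rps9 (1.14), Rps25 (1.07) and Rpl12 (1.07). Rpl3l is a muscle paralogue of Rpl3, and Rpl39l is a testis paralogue of Rpl39. Rps16 is a core 40S gene, and its only single-symbol representative read 2.76 to 3.60, so its message was not followed here. Other core members with dim chosen probe sets were Rps27 (mean 4.98), Rpl39 (6.45), Rpl12 (6.69), Rpl14 (6.74), Rpl27a (6.92), Rps6 (7.11), Rps25 (7.81) and Rpl37 (7.82). How well these probe sets follow the main message of their genes was not tested. A single probe set represented 26 members. Of the chosen probe sets, 17 end in x_at and 1 in s_at, types that can also bind related sequences such as the many ribosomal protein pseudogenes, so these members' values may include other transcripts.

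The median over the 50 members is a compact view of each array. It stood at 10.52, 10.91 and 10.86 under persistent antigen with PBS, against 11.03, 11.21 and 11.47 without antigen. With anti-CD40 it was 10.58, 10.87 and 11.00 under persistent antigen, against 11.20 and 11.08 without antigen. By this median every persistent-antigen array lay below every array without antigen, with either treatment, at closest 11.00 against 11.03. Other summaries gave an overlap. With anti-CD40, persistent replicate 3 had a member mean of 9.8, against 9.76 in no-antigen replicate 2. Its 40S and 60S medians were 11.28 and 10.93, against 11.25 and 10.83 in no-antigen replicates 1 and 2. With PBS the means did not overlap, at 9.55 to 9.68 against 9.85 to 9.99, but the 40S medians did (11.13 against 11.07). Under transient antigen the median of the 50 was 10.69 and 11.25 with anti-CD40 and 10.96, 11.33 and 11.26 with PBS, which overlaps the other regimes. The median of all genes lay between 4.84 and 5.02 on the 16 arrays. In bulk RNA, fewer cells with a high level and less of the message per cell cannot be told apart.

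**Figure D1:**
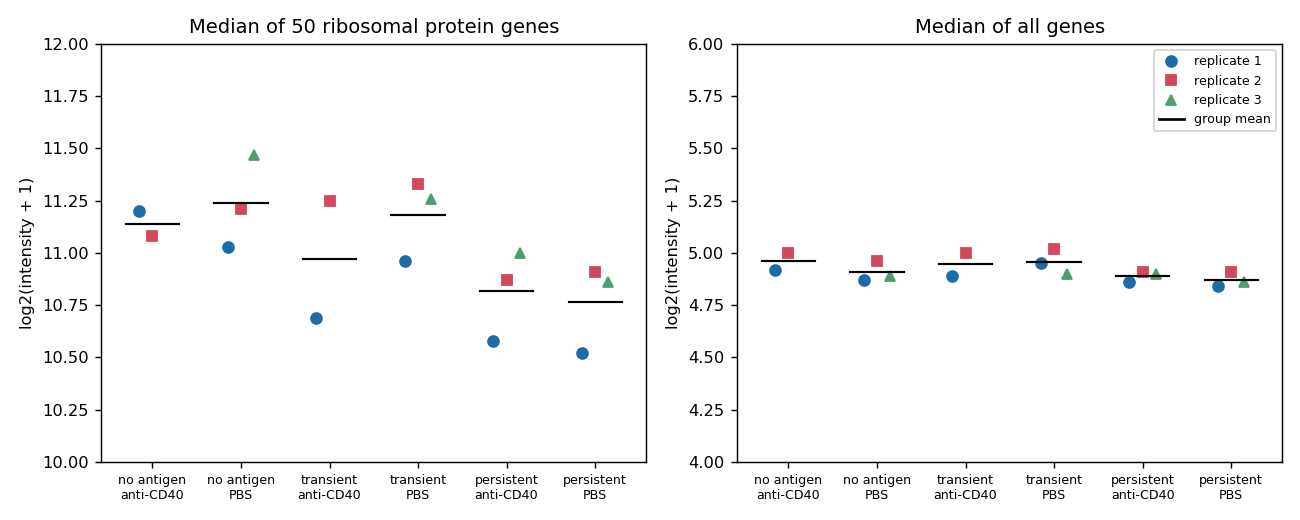
Each point is 1 array. The left panel plots the median of the 50 members and the right panel the median of all 18193 genes, both in log2(intensity + 1), by antigen regime and treatment, and short lines are group means. The 6 arrays with persistent antigen read 10.52 to 11.00 in the left panel, below the 5 arrays without antigen at 11.03 to 11.47.

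Persistent against no antigen with PBS asks what lasting antigen does when dendritic cells are not stimulated. The bulk of the ribosomal protein genes were lower under persistent antigen: 43 of 50 differences were negative, with a median of −0.40, beside a median of −0.03 and 55.3% negative over all genes. Large and small subunits shared this, with 20 of 23 negative and a median of −0.43 for 40S, and 23 of 26 and −0.35 for 60S. Within replicates 1, 2 and 3 the members' medians were −0.44, −0.41 and −0.34. The Gapdh gap in these replicates was 2.49, 1.36 and 3.51 under persistent antigen, against 2.84, 2.49 and 3.49 without antigen. It was lower under persistent antigen in replicates 1 and 2, and its part in the result was not tested. Without the block, limma called 0 members, beside 2.2% of all genes higher and 1.36% lower. In that fit 11 members had an unadjusted p under 0.05, beside 2370 of the 18193 genes. The members' smallest adjusted p was 0.075, for Rps19. With the replicate number as a block, 18 members fell and 2 rose, beside 6.79% of all genes lower and 9.93% higher. Leaving out the third persistent array changed the blocked count to 13, with 11 lower and 2 higher. In 12 of the 20, the call held in each of the 16 blocked fits that left out 1 array.

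Rps15, a protein of the small subunit's head, read 8.10, 9.08 and 8.12 in the persistent arrays with PBS, against 9.05, 9.62 and 9.52 in the arrays without antigen. The groups touch only where replicate 2 with antigen meets replicate 1 without. Within each replicate number the persistent array was lower, by −0.95, −0.54 and −1.40. The blocked difference was −0.96 ± 0.18 (SE, adjusted p = 0.00053), and −0.96 ± 0.33 without the block (adjusted p = 0.17). Rps24 is needed to process the precursor of 18S RNA. Its arrays read 9.91, 10.90 and 10.25 with persistent antigen, against 11.02, 11.79 and 11.21 without antigen, and did not overlap. It fell by 0.99 ± 0.18 in the blocked fit (adjusted p = 0.00041). Of its 5 other probe sets, the 3 with means between 8.97 and 10.07 fell too, by 0.92, 1.01 and 1.27, and the 2 with means of 4.07 and 4.31 did not pass.

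Rps19 is the gene most often mutated in Diamond-Blackfan anaemia, an inherited failure of red cell production. It read 11.77, 11.64 and 11.68 under persistent antigen, against 12.41, 12.20 and 12.47 without antigen. The groups were separate by more than their own spread, at means of 11.7 ± 0.07 and 12.36 ± 0.14 (SD, n = 3 each). The blocked difference was −0.66 ± 0.14 (adjusted p = 0.0018). Rpl12, at the base of the stalk, read 6.42, 5.92 and 6.23 against 7.74, 6.44 and 7.61, with no overlap. It fell by 1.07 ± 0.21 in the blocked fit (adjusted p = 0.00092). Rps25 read 6.99, 7.80 and 7.90 against 7.73, 8.86 and 8.70, with an overlap, and its blocked difference was −0.87 ± 0.23 (adjusted p = 0.011). For Rps14, a 40S gene lost in human 5q- syndrome, the blocked difference was −0.72 ± 0.15 (adjusted p = 0.0018).

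The other 12 that fell were Rpl19, Rpl37a, Rpl38, Rps28, Rps29, Rps10, Rps7, Rplp2, Rpl11, Rpl35, Rpl10a and Rps18, by 0.43 to 0.66. Among these, Rpl38 is known from mouse mutants with altered Hox translation, and its arrays read 10.16, 10.78 and 10.71 against 10.83, 11.27 and 11.32. Rpl37a read 10.89, 11.45 and 11.17 against 11.62, 11.82 and 11.99. Neither gene had overlapping arrays. Counted over all members, persistent arrays lay wholly below those without antigen for 16 (9.64% of all genes) and wholly above for 2 (8.4%). Those 2 were Rps6 and Rpl41. Rps6, the substrate of S6 kinase, read 7.13, 6.97 and 7.35 against 6.93, 6.78 and 6.78, and its blocked difference of 0.32 ± 0.16 missed the threshold (adjusted p = 0.22). Rpl41, a very short basic 60S peptide, differed by 0.32 ± 0.12 (adjusted p = 0.089). Its further probe set with a mean of 12.31 differed by 0.36. Those with means of 6.44 and 8.52 differed by −0.32 and −0.35 and did not pass. Rpsa, also known as the laminin receptor, differed by −0.03 ± 0.14 in the blocked fit (adjusted p = 0.94).

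Both members that rose did so with large differences. Rps27l is a paralogue of Rps27, is induced by p53 and binds MDM2. It read 9.26, 7.65 and 9.27 under persistent antigen, against 7.83, 6.81 and 7.80 without antigen. Replicate 2 was the lowest array of both groups, so the groups overlap, yet within replicates the differences were 1.43, 0.85 and 1.47. The blocked difference was 1.25 ± 0.16 (adjusted p = 1.5e-05). All 3 probe sets of Rps27l were higher, by 1.53, 1.25 and 1.52. Rps27 itself read 3 arrays lower within their numbers, by −0.98, −0.22 and −0.09, and did not pass (adjusted p = 0.11 in the blocked fit). Rpl14, of the 60S subunit, read 7.71, 6.19 and 7.74 against 6.50, 4.90 and 6.68. It was again low in replicate 2 of both groups, and its blocked difference was 1.19 ± 0.19 (adjusted p = 0.00011). A single probe set represented Rpl14, and its mean of 6.74 is dim for a core member, so it may not follow the gene's main message.

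**Figure D2:**
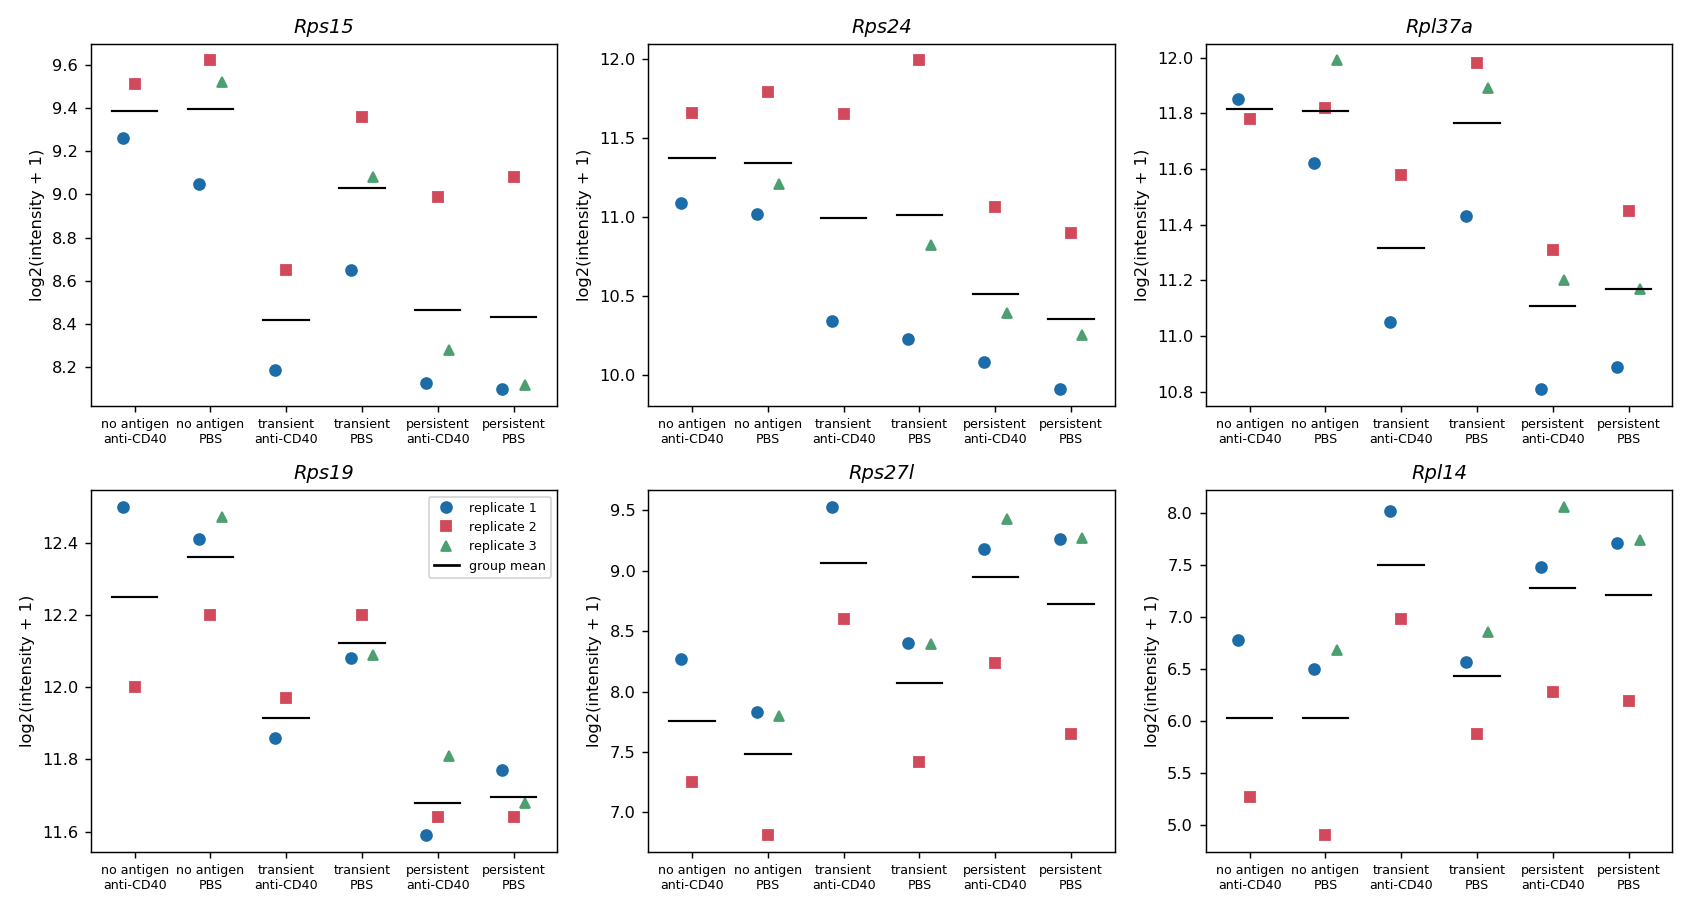
Each point is 1 array, in log2(intensity + 1), for Rps15, Rps24, Rpl37a, Rps19, Rps27l and Rpl14 in the 6 groups, with marker shapes for replicate numbers and lines for group means. The first 4 genes are lowest or nearly so under persistent antigen, and Rps27l and Rpl14 are higher there and under transient antigen with anti-CD40, with replicate 2 low for both genes in every group.

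**Figure D3:**
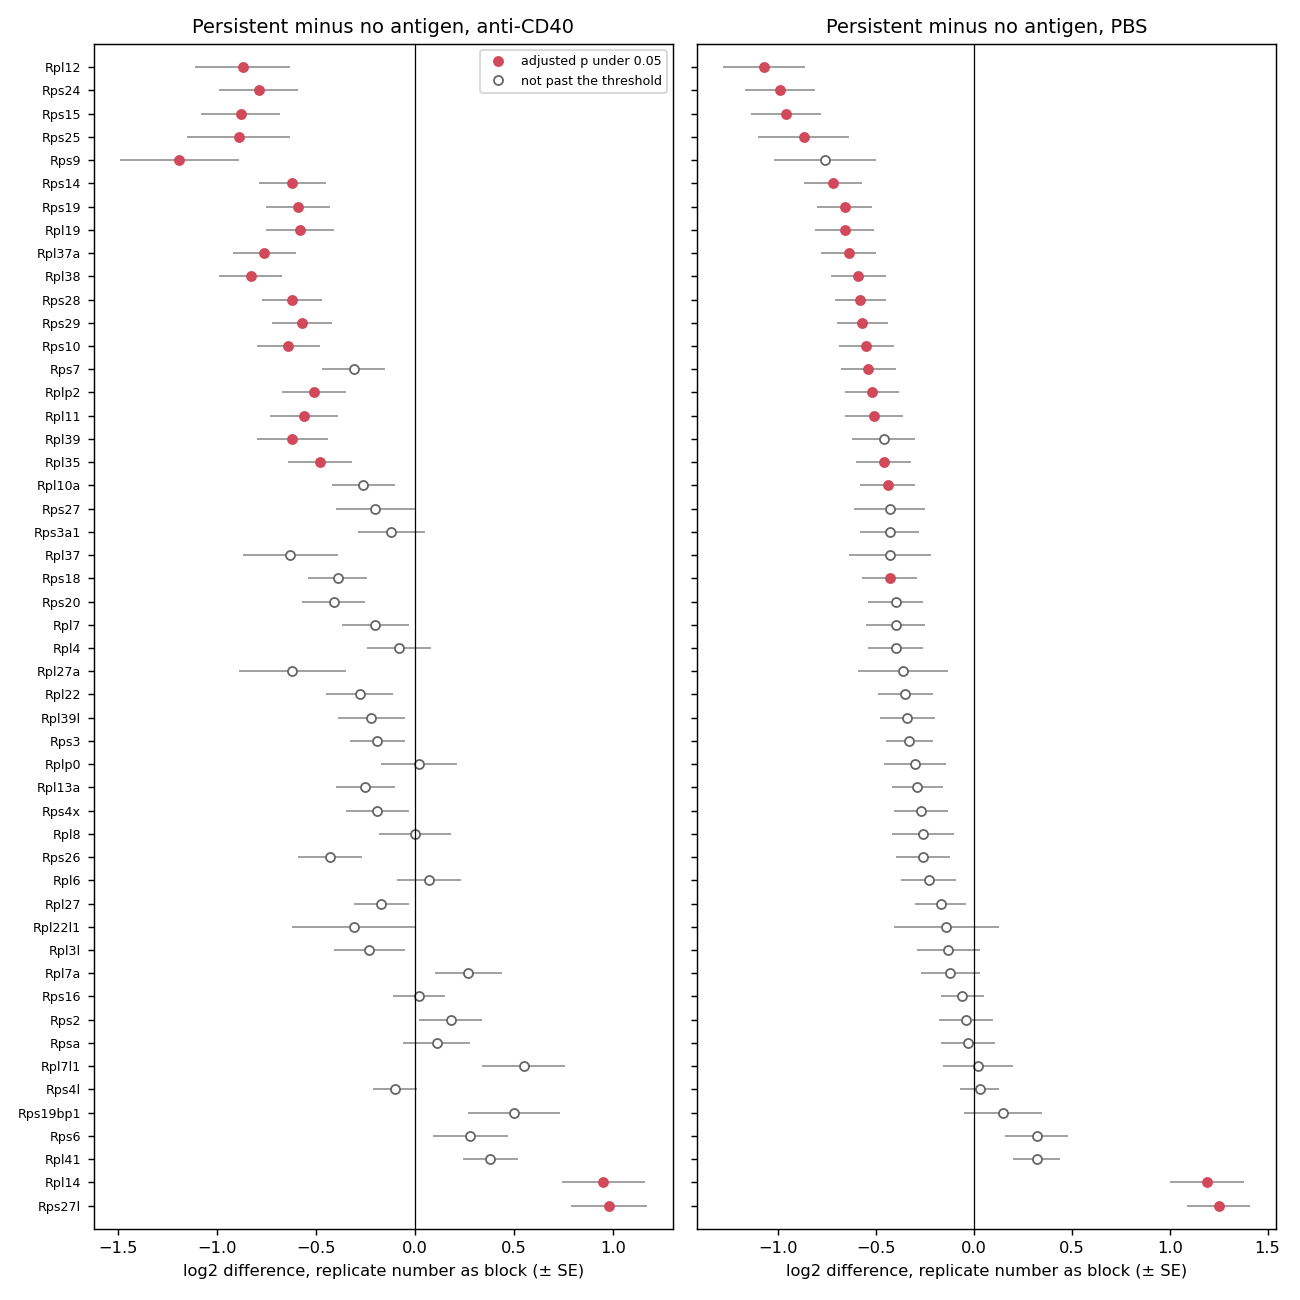
Points are log2 differences (± SE) of the 50 members between persistent and no antigen in the blocked fit, with anti-CD40 on the left and PBS on the right, in the order of the PBS values. Filled points passed an adjusted p of 0.05: 17 lower and 2 higher with anti-CD40, 18 lower and 2 higher with PBS.

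Many core genes were missing from the 50 because their probe sets carry a pseudogene's symbol as well. For 24 such genes the brightest shared probe set was examined, an addition made after the data had been seen. All 24 differences between persistent and no antigen with PBS were negative, with a median of −0.41 and a range from −1.08 to −0.10. Of these, 11 fell in the blocked fit and 0 in the fit without the block, beside 6.79% and 1.36% of the 18193 genes. Rps15a was lowest at −1.08 ± 0.18, and the stalk protein gene Rplp1 stood at −0.47 ± 0.12. Between transient and no antigen with PBS, the same 24 genes had 12 negative and 12 positive differences and a median of −0.01. Signal from the pseudogenes cannot be separated from that of the genes on these probe sets.

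**Figure D4:**
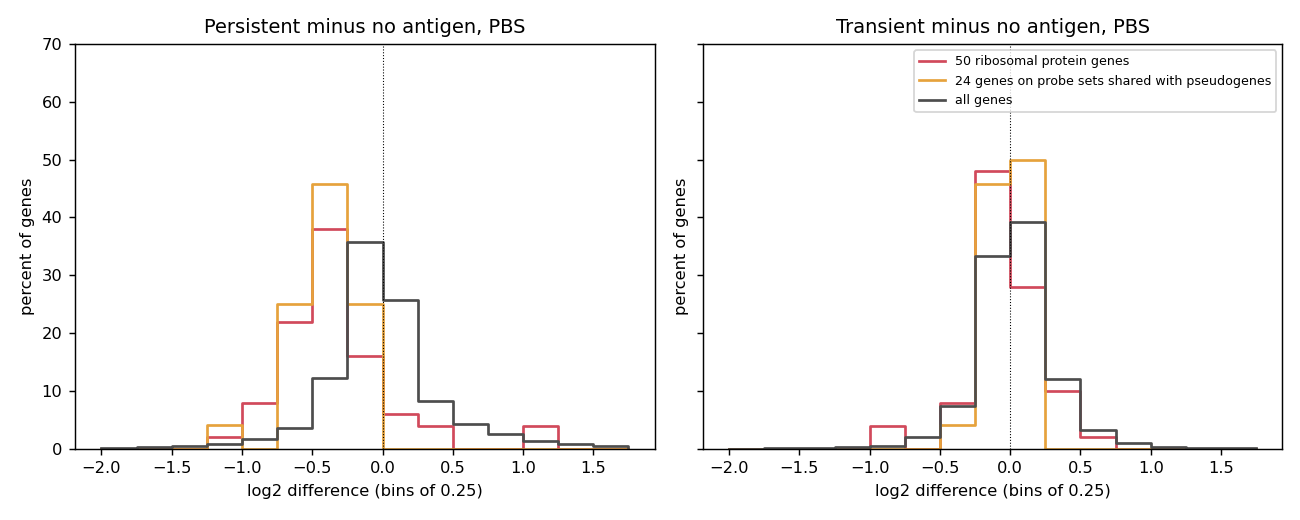
Step lines give the percent of genes per bin of 0.25 in the log2 difference for the 50 members, the 24 genes on shared probe sets and all genes. In the left panel (persistent minus no antigen, PBS) the medians are −0.40, −0.41 and −0.03, and in the right panel (transient minus no antigen, PBS) −0.06, −0.01 and 0.03.

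Where a member had several probe sets, the others did not always follow. Of 56 further probe sets of the members, 13 had the other sign for persistent against no antigen with PBS. Of these, 3 passed the threshold in a blocked fit over probe sets: 2 of Rpl13a, at 1.10 and 0.60, and 1 of Rps3, at 1.01. The chosen probe sets of Rpl13a and Rps3 differed by −0.29 and −0.33 and did not pass. A further 26 of the 56 passed with the same sign as the chosen one. The direction of Rpl13a and Rps3 is therefore uncertain. So is that of Rpl41, with probe sets at −0.32 and −0.35 beside 0.32 and 0.36.

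The first bases of ribosomal protein transcripts are of interest because the pyrimidine run that mTOR acts through lies there. RefSeq start sites (GRCm38.p6) were found for 44 of the 50 genes, with 52 windows. Shown are 20 bases before and 20 after the annotated start, plus strand in each case, for 3 genes that fell and the 2 that rose under persistent antigen, with the longest run of C or T in capitals. The windows are chr10:80292411-80292450 for Rps15, chr14:24490658-24490697 for Rps24, chr11:114668560-114668599 for Rpl38, chr9:120571497-120571536 for Rpl14 and chr9:66946066-66946105 for Rps27l.
Rps15: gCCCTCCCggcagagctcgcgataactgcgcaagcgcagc
Rps24: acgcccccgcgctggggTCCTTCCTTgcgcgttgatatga
Rpl38: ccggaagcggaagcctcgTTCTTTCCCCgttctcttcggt
Rpl14: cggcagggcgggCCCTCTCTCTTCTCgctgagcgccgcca
Rps27l: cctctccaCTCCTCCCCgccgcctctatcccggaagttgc
The runs were 7, 9, 10, 14 and 9 bases long in this order. Those of Rps24, Rpl38 and Rpl14 span the annotated start, and those of Rps15 and Rps27l end before it. RefSeq gives a second start for Rps24 and for Rps27l, where the longest runs were 7 and 4 bases. A run of at least 8 pyrimidines lay in 38.5% of the members' windows of 40 bases and in 16% of all 32851 windows. In the 300 bases around the start, on either strand, the ETS-type motif CCGGAAG lay in 40.4% of the members' windows and 8.86% of all. For the E-box CACGTG, known as a MYC site, the shares were 9.62% and 7.15%. For the YY1-type motif AAGATGGC, which can share its first letters with the end of CCGGAAG, they were 7.69% and 2.75%. A match describes letters in the window and not a bound factor.

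Transient against no antigen with PBS asks what remains after antigen has gone. The members stayed near the rest of the genes, with 30 of 50 negative and a median of −0.06, beside 0.03 over all genes. The medians within replicates 1, 2 and 3 were −0.18, 0.14 and −0.08. Unblocked, 0 members were called, beside 0.0934% of all genes higher and 0.033% lower (unadjusted p under 0.05: 2 members, 845 of 18193 genes). In the blocked fit 2 fell and 0 rose, beside 0.868% lower and 2.02% higher. Rps25 read 7.08, 7.77 and 7.88 under transient antigen, against 7.73, 8.86 and 8.70 without antigen, a blocked difference of −0.86 ± 0.23 (adjusted p = 0.047). Rpl12 read 6.66, 5.84 and 6.85 against 7.74, 6.44 and 7.61, a blocked difference of −0.81 ± 0.21 (adjusted p = 0.040). The groups overlap in both genes. Arrays of the groups lay apart for 1 member lower, Rps19 (3.04% of all genes), and 1 higher, Rps6 (7.08%). Of the 16 arrays, leaving out replicate 3 of the no-antigen group, any one of the 3 transient PBS arrays or replicate 1 of the persistent PBS group left 0 calls. Rps27l differed by 0.57, 0.62 and 0.58 within replicates and missed the threshold in the blocked fit (0.59 ± 0.16, adjusted p = 0.057).

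Persistent against transient antigen with PBS compares the 2 antigen regimes in recipients of the same genotype. Members were again lower under persistent antigen, with 43 of 50 negative and a median of −0.30, beside −0.05 over all genes. Within replicates the members' medians were −0.18, −0.45 and −0.29. The unblocked fit called 0, beside 0.605% of all genes higher and 0.324% lower (unadjusted p under 0.05: 7 members, 2043 of 18193 genes). With the block 14 fell and 2 rose, beside 5.44% lower and 5.99% higher. The count rested on single arrays: it was 9, 2 and 4 without transient PBS replicate 1, 2 or 3, 1 without persistent PBS replicate 1 and 2 without persistent PBS replicate 3. This comparison shares its persistent arrays with the one against no antigen, so the 2 are not independent. Persistent arrays lay wholly below transient ones for 11 members (11.4% of all genes) and wholly above for 0 (6.06%).

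Rps9, a 40S protein, read 9.96, 9.20 and 10.37 under persistent antigen, against 11.16, 10.33 and 11.08 under transient antigen. Each persistent array was below its own number, though the groups overlap, and the blocked difference was −1.01 ± 0.26 (adjusted p = 0.015). The other 2 probe sets of Rps9 moved less against no antigen, by −0.27 and −0.30, than the chosen one at −0.76. Rpl37 read 7.79, 6.42 and 8.47 against 8.48, 7.54 and 9.11, a blocked difference of −0.81 ± 0.21 (adjusted p = 0.015). Rps24 fell by 0.67 ± 0.18 (adjusted p = 0.017), a call that was lost without replicate 2 of the transient group (−0.43, adjusted p = 0.17). None of the 16 calls held in all fits that left out an array. Rpl37a fell by 0.60 ± 0.14 (adjusted p = 0.0089), Rps10 by 0.59 ± 0.14 (adjusted p = 0.0097) and Rps15 by 0.60 ± 0.18 (adjusted p = 0.032). Probe sets without a letter suffix gave the other sign for Rps9 (0.43), Rps24 (0.02) and Rps10 (0.13) in the fit without the block, and none passed. Rpl14 rose by 0.78 ± 0.19 (adjusted p = 0.0082) and Rps27l by 0.66 ± 0.16 (adjusted p = 0.011).

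With anti-CD40, persistent against no antigen was compared over 3 and 2 arrays. Of the members 39 of 50 were negative, with a median of −0.26, beside −0.03 over all genes, and of −0.68 after loess scaling. Within replicates 1 and 2 the medians were −0.47 and −0.26. Without the block 0 were called, beside 1.64% of all genes higher and 0.737% lower (unadjusted p under 0.05: 7 members, 2567 of 18193 genes). With the block 17 fell and 2 rose, beside 5.5% lower and 10.9% higher. The count was 4 without the no-antigen replicate 1 array and 12 without persistent replicate 1 or 2. Of the 19 calls only those of Rpl38 and Rps27l held in each of the 16 fits that left out an array. For 6 members that fell, Rpl19, Rpl35, Rpl37a, Rps14, Rps19 and Rps24, the blocked differences without that no-antigen array were −0.35, −0.29, −0.49, −0.34, −0.35 and −0.50, and none of the 6 passed (adjusted p 0.068 to 0.33). Arrays lay wholly apart for 16 members lower (14.2% of all genes) and 2 higher (13.5%).

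Among these, Rps15 read 8.13, 8.99 and 8.28 under persistent antigen with anti-CD40, against 9.26 and 9.51 without antigen, with no overlap. The blocked difference was −0.88 ± 0.20 (adjusted p = 0.0044). Rpl38 read 10.17, 10.41 and 10.77 against 11.09 and 11.28, also apart, at −0.83 ± 0.16 (adjusted p = 0.0012). Rps9 read 10.19, 8.06 and 10.89 against 11.13 and 10.02, so a single array set its size. It differed by −1.19 ± 0.30 in the blocked fit (adjusted p = 0.0094) and by −0.65 without that replicate 2 array, which ends the call (adjusted p = 0.084). Read through its probe set without a letter suffix, Rps9 differed by 0.78 without the block and did not pass. Likewise Rps25, at −0.89 ± 0.26 (adjusted p = 0.022), differed by −0.55 without it (adjusted p = 0.21). Rps27l read 9.18, 8.24 and 9.43 against 8.27 and 7.25, and rose by 0.98 ± 0.19 (adjusted p = 0.00096). Rpl14 read 7.48, 6.28 and 8.06 against 6.78 and 5.27, and rose by 0.95 ± 0.21 (adjusted p = 0.0035).

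The groups behind persistent against no antigen with anti-CD40 and with PBS hold different arrays, but 1 blocked fit gave both, with shared replicate effects and a shared spread. The calls had 17 members in common, all with the same sign, which is 89.5% of the 19 with anti-CD40 and 85% of the 20 with PBS. Over all genes, the calls in both with the same sign were 72.1% of those with anti-CD40 and 70.8% of those with PBS. Rpl39, which lines the exit tunnel, and Rps9 passed with anti-CD40 and not with PBS, and Rpl10a, Rps18 and Rps7 the other way round. After loess scaling all 5 passed in both. The difference between the treatments was not tested for this comparison.

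Transient against no antigen with anti-CD40 had 2 arrays a group. The members' median was −0.16, beside −0.01 over all genes, and 33 of 50 were negative. The replicates went opposite ways, with medians of −0.38 and 40 negative members in replicate 1 and of 0.08 and 18 negative in replicate 2. The unblocked fit called 0, beside 0.423% of all genes higher and 0.148% lower (unadjusted p under 0.05: 2 members, 1904 of 18193 genes). The blocked fit had 4 rise and 2 fall, beside 10.5% higher and 3.48% lower. After cyclic loess scaling of the arrays the blocked split was 3 higher and 24 lower, and the share of all genes called after that scaling was not counted. The count was 3 without replicate 1 of the transient group. Arrays lay wholly apart for 6 members higher (15.8% of all genes) and 6 lower (12.4%). Rpl14 read 8.02 and 6.98 under transient antigen with anti-CD40, against 6.78 and 5.27 without antigen, and rose by 1.48 ± 0.23 (adjusted p = 0.00019). Rps27l read 9.53 and 8.60 against 8.27 and 7.25, and rose by 1.30 ± 0.20 (adjusted p = 0.00019). Both genes were wholly above the arrays without antigen.

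Also in that comparison, Rpl7l1, an L7-like paralogue linked to ribosome assembly, read 8.16 and 7.04 against 7.30 and 6.24, and rose by 0.83 ± 0.22 (adjusted p = 0.015). Rps19bp1, the member that is not a ribosomal protein, read 7.07 and 6.58 against 5.97 and 6.19. It rose by 0.74 ± 0.24 (adjusted p = 0.048), a call that was lost after loess scaling, and without replicate 1 of the transient group (0.40, adjusted p = 0.51). Rps15 read 8.19 and 8.65 against 9.26 and 9.51, and fell by 0.97 ± 0.22 (adjusted p = 0.0044). Rps29 fell by 0.58 ± 0.16 (adjusted p = 0.019).

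Persistent against transient antigen with anti-CD40 gave 0 calls in both fits. Beside this stood 0.0055% of all genes higher and 0% lower without the block, and 0.055% and 0.022% with it. At an unadjusted p under 0.05 there were 0 members without the block and 7 with it, beside 355 and 1112 of the 18193 genes. The median of the members was −0.16, with 38 of 50 negative, beside −0.02 over all genes. Rps25 had the smallest p in the blocked fit, at −0.90 ± 0.26 (adjusted p = 0.52). Arrays lay wholly apart for 4 members lower (7.9% of all genes), Rpl4, Rps19, Rps28 and Rps4l, and 0 higher (4.26%).

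**Figure D5:**
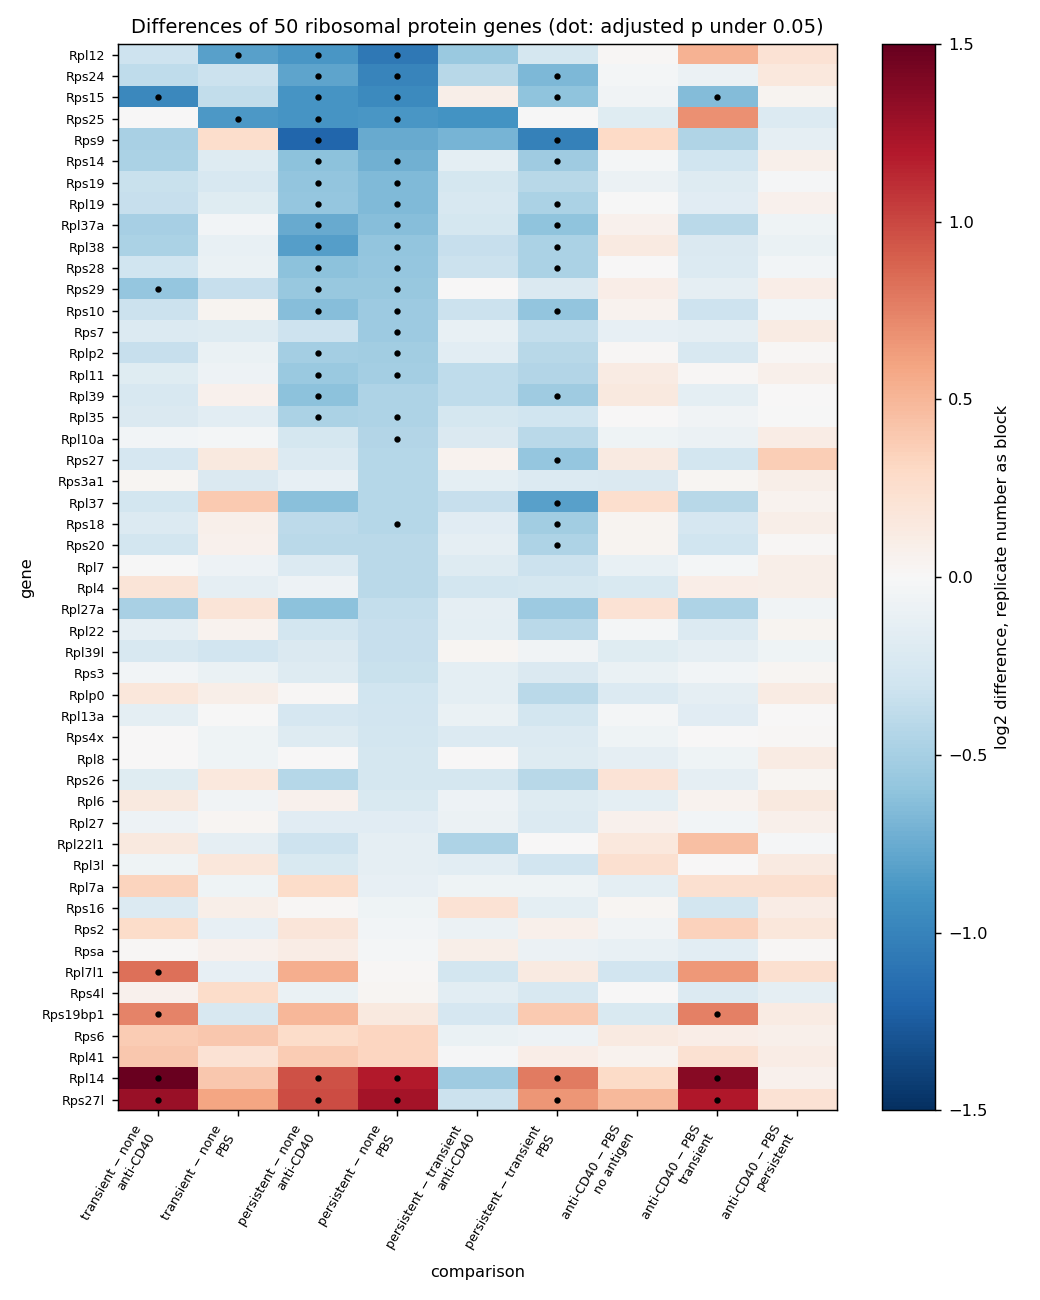
Colour gives the log2 difference of each of the 50 members in the blocked fit for 9 comparisons, blue for lower and red for higher, and dots mark an adjusted p under 0.05. Dots are most frequent in the columns for persistent against no antigen (19 with anti-CD40 and 20 with PBS), and Rpl14 and Rps27l at the bottom run against the other rows.

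Anti-CD40 against PBS was compared within each antigen regime. Without antigen 0 members were called in either fit, beside 0% of all genes without the block and 0.0055% higher and 0% lower with it. An unadjusted p under 0.05 was seen for 0 members without the block and 1 with it, beside 317 and 965 of 18193 genes. The members' median was −0.06, and 0.12 after loess scaling. Arrays with anti-CD40 lay wholly below those with PBS for 1 member, Rps19bp1 (4.68% of all genes), and wholly above for 0 (6.12%). Under persistent antigen 0 members were called in either fit, beside 0% of all genes, and the members' median was 0.07. In both fits 0 members had an unadjusted p under 0.05, beside 110 of 18193 genes without the block and 484 with it. Arrays lay apart for 0 members, beside 2.14% of all genes higher and 1.35% lower. Under transient antigen the median was −0.14, beside −0.03 over all genes. The unblocked fit called 0, beside 0.522% of all genes higher and 0.115% lower (unadjusted p under 0.05: 1 member, 1691 of 18193 genes). The blocked fit had 3 rise and 1 fall, beside 7.59% higher and 2.92% lower, and after loess scaling 4 rose and 4 fell. The count was 2 without replicate 1 of the no-antigen PBS, transient PBS, transient anti-CD40 or persistent anti-CD40 group, or replicate 3 of the last. Arrays with anti-CD40 lay wholly above those with PBS for 7 members (10.5% of all genes) and wholly below for 5 (11.1%).

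Under transient antigen Rpl14 read 8.02 and 6.98 with anti-CD40, against 6.57, 5.87 and 6.85 with PBS. The arrays did not overlap, and the blocked difference was 1.37 ± 0.21 (adjusted p = 0.00029). Rps27l read 9.53 and 8.60 against 8.40, 7.42 and 8.39, again apart, at 1.2 ± 0.19 (adjusted p = 0.0003). Both calls held in each of the 16 blocked fits that left out an array. Rps19bp1 read 7.07 and 6.58 against 5.72, 6.48 and 5.95, at 0.75 ± 0.23 (adjusted p = 0.039), and did not pass without transient anti-CD40 replicate 1 (0.41, adjusted p = 0.63). Rps15 read 8.19 and 8.65 against 8.65, 9.36 and 9.08, touching at 1 value, at −0.65 ± 0.20 (adjusted p = 0.044).

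Whether the anti-CD40 difference itself changed between regimes was tested with 2 interaction terms. Transient minus no antigen called 1 member, Rpl14 (1.08 ± 0.29, adjusted p = 0.047), in the blocked fit, beside 3.09% of all genes higher and 0.605% lower. Persistent minus transient antigen called 2, Rpl14 (−1.31 ± 0.28, adjusted p = 0.022) and Rps27l (−0.98 ± 0.25, adjusted p = 0.0497), beside 1.52% of all genes lower and 0.275% higher. Without the block these terms called 0 members and 0% of genes. At an unadjusted p under 0.05 there were 1 and 0 members, beside 895 and 628 of the 18193 genes. The first term gave 0 calls without any one of 10 arrays, and the second without any one of 7 arrays. After loess scaling the member called by the first term was Rpl37a, lower, and not Rpl14.

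Members can also be read by what their proteins do. The stalk recruits the elongation factors, and of its genes Rplp0 and Rplp2 were measured. Rplp2 read 11.12, 10.28 and 11.04 under persistent antigen with PBS, against 11.67, 10.86 and 11.47 without antigen, and fell by 0.52 ± 0.14 in the blocked fit (adjusted p = 0.016). Rplp0 differed by −0.30 ± 0.16 there (adjusted p = 0.25). Of 5 measured members whose proteins bind MDM2 or its partners, Rpl11 and Rps7 fell, by 0.51 ± 0.15 (adjusted p = 0.022) and 0.54 ± 0.14 (adjusted p = 0.011), and Rps27l rose. Rps3 and Rps27 did not pass. Of 11 measured genes mutated in Diamond-Blackfan anaemia, 7 fell with anti-CD40 and 8 with PBS for persistent against no antigen in the blocked fit, and 0 rose. Of all members 34% and 36% fell there, and of all genes 5.5% and 6.79%. Without the block 0 of the 11 passed.

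The 6 measured paralogues, with the transcribed pseudogene Rps4l counted among them, did not share a direction. For persistent against no antigen with PBS, Rps27l alone passed, in the blocked fit. The differences of the others were −0.14 ± 0.27 for Rpl22l1, −0.34 ± 0.14 for Rpl39l, −0.13 ± 0.16 for Rpl3l, 0.02 ± 0.18 for Rpl7l1 and 0.03 ± 0.10 for Rps4l. Rpl22l1 was the most variable, at 9.87, 10.09 and 10.13 under persistent antigen against 10.38, 10.85 and 9.26 without antigen.

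Other genes of the pathway were taken from lists of translation factors, TOR and MYC regulators, assembly factors, p53 checkpoint genes and ribosomal proteins with other names. Fau, which encodes a 40S protein fused to a ubiquitin-like one, read 10.34, 10.87 and 10.75 under persistent antigen with PBS, against 10.80, 11.18 and 11.55 without antigen, and fell by 0.52 ± 0.14 in the blocked fit (adjusted p = 0.011). Of 18 measured translation factors and other genes with similar 5′ ends, 4 fell and 1 rose in that comparison with the block, beside 6.79% and 9.93% of all genes, and 0 passed without it. Those that fell were Eef1b2, Tpt1, Hnrnpa1 and Gas5, the last at −0.67 ± 0.14 (adjusted p = 0.0023), and Nap1l1 rose by 0.92 ± 0.19 (adjusted p = 0.0015). Of 15 genes that regulate ribosomal protein output through TOR or MYC, 4 fell and 1 rose with the block, and 1 fell without it, beside 1.36% of all genes. Sesn1, an inhibitor of TOR complex 1, read 7.92, 7.34 and 8.24 against 9.23, 9.14 and 9.77, and was the one that passed without the block (−1.54 ± 0.35, adjusted p = 0.023). Myc differed by −1.14 ± 0.20 in the blocked fit (adjusted p = 0.00034). Among 3 measured genes of the p53 checkpoint, Mdm4, a p53 inhibitor, read 7.21, 7.23 and 6.76 against 8.36, 8.18 and 8.09 and passed without the block (−1.14 ± 0.24, adjusted p = 0.014). Mdm2 and Cdkn1a had group means of 7.01 and 5.98, against 7.13 and 5.8 without antigen, and passed in neither fit.

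Factors that assemble the subunits formed another list. Of 15 measured assembly factors, 11 rose and 0 fell for transient against no antigen with anti-CD40 in the blocked fit, beside 10.5% and 3.48% of all genes, and 0 passed without the block. Their median was 0.86, and that of the members −0.16. For anti-CD40 against PBS under transient antigen 9 rose and 0 fell with the block, beside 7.59% and 2.92% of all genes. Without the block 2 rose, beside 0.522% of all genes. Those 2 were Pno1 and Bysl, both of the 40S pathway. Pno1 read 8.62 and 7.72 with anti-CD40, against 6.53, 5.94 and 6.43 with PBS, and rose by 1.88 ± 0.37 (adjusted p = 0.039). Bysl read 7.45 and 6.66 against 5.74, 5.89 and 5.6, and rose by 1.32 ± 0.26 (adjusted p = 0.040). For persistent against no antigen in the blocked fit, 5 rose and 0 fell with anti-CD40, beside 10.9% and 5.5% of all genes. With PBS 2 rose and 1 fell, beside 9.93% and 6.79% of all genes. Without the block 1 rose with anti-CD40, beside 1.64% of all genes, and 0 passed with PBS, beside 2.2% higher and 1.36% lower. The difference between the assembly list and the members was not tested.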

How the data were processed

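RNA of sorted AND T cells was measured on 16 arrays, 45101 probe sets each. Per the submitters' processing notes the authors made the deposited intensity values with RMA, and its version is not given in the sources used here. Their range showed a linear scale, so log2(intensity + 1) was used, which shrinks differences of dim genes. RMA usually puts arrays on 1 common distribution, but the deposited values did not share one. Mean intensity per array ran from 83.5 to 121 and the highest value from 9609 to 13508. A shift of all genes at once cannot be told apart from such differences in scale between arrays. GEO's platform annotation gave 34945 probe sets with 1 symbol, 18193 genes, and 932 probe sets with several. The number of arrays limits the precision.

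Groups came from the labels. A limma 3.58.1 model (R 4.3.3) of 6 group means with an intensity trend held all arrays, with no block. The Benjamini-Hochberg adjustment ran over all 18193 genes, with a threshold of 0.05. There were 9 pairwise comparisons and 2 interaction terms. Deviations of same-numbered arrays correlated at 0.48 to 0.81 (median 0.68, 36 pairs), those of different numbers at a median of −0.53 (70 pairs), and all 16 arrays matched their own number best. Since deviations cancel within each group, the negative median follows from the positive one and is not separate evidence of pairing. The labels do not say what a number marks. On these correlations alone same-numbered arrays were treated as pairs, and a fit with the number as a block stands beside the unblocked one.

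The members, lists and tests were chosen with earlier results of these data known. Named were the 6 largest rises and falls past the threshold per comparison and fit (otherwise the 5 smallest p, of which a part is printed), the stalk, MDM2-binding and paralogue members, Rps19bp1, Rpsa, Rps6, the 3 brightest, the 3 dimmest and the 5 with the widest range of group means, and up to 4 genes of each other list. Further genes named were chosen after their values were seen. Simulated data served to test the model. Alternatives were an array run block, probe set choices, loess scaling, pseudocount 16, no dim genes, no trend and leaving out each array; for the blocked fit these were added after seeing the data. Promoter windows are RefSeq's. Figures used Python 3.11.15, pandas 2.3.3 and matplotlib 3.10.9.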

Additional observations from a re-analysis of the deposited data

Results flagged for a closer look

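The anti-CD40 difference of Rpl14 was larger under transient antigen than without antigen, by 1.08 ± 0.29 (SE, blocked limma fit, adjusted p = 0.047), a difference between groups found by an interaction term. It was smaller under persistent than under transient antigen, by −1.31 ± 0.28 (adjusted p = 0.022). For Rps27l the second term was −0.98 ± 0.25 (adjusted p = 0.0497). Within replicates 1 and 2, Rpl14 differed between anti-CD40 and PBS by 1.46 and 1.11 under transient antigen, and Rps27l by 1.12 and 1.17. Over the 16 blocked fits that left out 1 array, these terms ranged from 0.93 to 1.31, from −1.57 to −1.18 and from −1.15 to −0.87, and were called in 4, 9 and 5 of them. After loess scaling they were 0.97 (adjusted p = 0.062), −1.29 (adjusted p = 0.021) and −0.92 (adjusted p = 0.043). The cause was not tested.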

How the results depend on the processing

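Without a block 0 members were called in every comparison. In the order transient against no, persistent against no and persistent against transient antigen with PBS, the replicate block gave 2, 20 and 16 calls and an array run block 1, 29 and 23. With anti-CD40, transient and persistent against no antigen gave 6 and 19 with the replicate block and 8 and 21 with the run block. Anti-CD40 against PBS under transient antigen gave 4 and 6, and the interaction terms 1 and 2 under both blocks. Unblocked calls for persistent against no antigen were 4 with PBS and 3 with anti-CD40 after loess scaling, 2 and 1 without dim genes, and 2 and 1 without the trend. For the run block and these unblocked alternatives the share of all genes called was not counted, so their counts have no background here. Member medians moved under loess scaling to −0.43 (transient) and −0.68 (persistent) against no antigen with anti-CD40. Those medians ranged from −0.23 to 0.11 and from −0.35 to −0.14 over fits leaving out 1 array. The first was 0.11 without transient anti-CD40 replicate 1. These were the 3 of 268 alternatives in which a median moved beyond the spread between replicates. Many of the 268 could not move a median. In the unblocked fit, leaving out an array outside the comparison or dropping the trend leaves each difference as it is.

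For the blocked counts, loess scaling gave 34 for persistent against no antigen with PBS and 27 and 33 for transient and persistent with anti-CD40, and 8 for anti-CD40 under transient antigen. For loess scaling and the alternatives that follow, the shares of all genes called were not counted, so these counts have no background beside them. Probe sets without a letter suffix (27 members) gave 6, 4 and 7 for persistent against no and transient antigen with PBS and against no antigen with anti-CD40, and 2 and 1 for the interactions. For transient against no antigen with PBS, the mean of probe sets and pseudocount 16 each gave 1, and pseudocount 16 gave 1 for the second interaction. Replicates 1 and 3 alone gave 3, 30 and 18 with PBS. Leaving out 1 array gave 0 to 3, 13 to 25 and 1 to 21 with PBS (9 for the last without transient replicate 1), 3 to 6 and 4 to 19 with anti-CD40 (12 for the last without persistent replicate 1 or 2), 2 to 6 for anti-CD40 under transient antigen and 0 to 2 for each interaction. Without the block it gave 0, except 0 to 1 for persistent against no antigen with PBS. Among 54 named differences and 1276 alternatives, 10 changed the sign of 8 differences, none of them called there. Many of these alternatives too could not change a difference, for the same reason as with the medians. Probe sets without a letter suffix turned Rps9 (0.43), Rps24 (0.02) and Rps10 (0.13) for persistent against transient antigen with PBS, and Rps9 (0.78) for persistent against no antigen with anti-CD40. Leaving out no-antigen anti-CD40 replicate 2 turned Rpl3l (−0.06), Rpl8 (0.04) and Rpl7l1 (0.20) for anti-CD40 against PBS without antigen. Rpsa for persistent against no antigen with PBS became 0.06 with the mean of its probe sets, and 0.09 and 0.16 without no-antigen replicate 3 or persistent replicate 1. A group left with 1 array is assumed to vary like the others. Where calls were lost, the cause was not tested.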
